A study of Mus musculus with 36 samples.

Results

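The plakophilins and the p120-catenins, a family of armadillo-repeat proteins, were followed at the RNA level in mouse keratinocytes with and without plakophilin 4. The members were chosen by name: the mouse genes Pkp1, Pkp2, Pkp3, Pkp4, Ctnnd1 and Arvcf, and GFP_PKP4, the row of the transgene that was added to the genome. These are 7 of the 55358 rows of the count table. All 7 passed the filter on low counts, which kept 15114 rows. The question was whether the relatives of Pkp4 change when it is lost or put back, and how each responds to calcium and to time in culture.

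WT and PKP4-KO keratinocytes came from newborn Pkp4+/+ and Pkp4-/- pups. The knockout allele derives from tm1b, in which exon 9 of Pkp4 has been removed in every cell of the animal. Its lacZ reporter was then taken out by FLPe breeding, and the line was backcrossed to C57BL/6J for 10 generations. Rescue cells were the same PKP4-KO keratinocytes carrying a lentiviral vector for human PKP4 with an N-terminal EGFP, selected with puromycin as a stable line. No PKP4-KO line with a vector lacking PKP4 was analysed here, so an effect of the transgene and one of infection and selection cannot be told apart. Each genotype was cultured over 24 h and over 72 h, in low calcium medium (LCM, 50 µM CaCl2) or in high calcium medium (HCM, LCM with 1.2 mM CaCl2 added), which makes keratinocytes build junctions and differentiate. The sample titles carry HD for the 72 h libraries and LD for the 24 h libraries, and do not spell these letters out. Anything else that they mark cannot be told apart from time in culture. The 12 groups held 3 libraries each, 36 in all. The labels do not say whether the libraries of a group came from separate cultures or pups, so the p-values measure the spread between these libraries, which may be technical.

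Proteins of this family bind the cytoplasmic tails of classical or desmosomal cadherins. Plakophilins 1, 2 and 3 are desmosomal plaque proteins that tie desmosomal cadherins to desmoplakin and so to keratin filaments. Plakophilin 1 and plakophilin 3 are the main forms of stratified epidermis, and plakophilin 2 prevails in simple epithelia and heart muscle. Plakophilin 4 (also named p0071), p120-catenin (Ctnnd1) and Arvcf sit mainly at adherens junctions, where p120-catenin keeps cadherins at the cell surface.

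The sequences that follow show the join of exon 8 and exon 10 in a transcript without exon 9, and the coding ends of the mouse members. They were read from the GRCm39 genome with the GENCODE vM39 annotation. Pkp4 (ENSMUSG00000026991) lies on the forward strand at chr2:58991088-59185552. Exon 9 of its canonical transcript has 220 bp, at chr2:59142038-59142257, and this length leaves a remainder of 1 when divided by 3. The joined sequence of exon 8 and exon 10 is shown from 30 bases before the join, with capitals for the first stop codon in the frame of exon 8. That codon falls 40 codons after the join, so the open frame has 487 codons of 1147 in the full transcript, or 42.5%. Whether cells make this RNA is not seen in counts per gene.

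Pkp4 exon 8 joined to exon 10: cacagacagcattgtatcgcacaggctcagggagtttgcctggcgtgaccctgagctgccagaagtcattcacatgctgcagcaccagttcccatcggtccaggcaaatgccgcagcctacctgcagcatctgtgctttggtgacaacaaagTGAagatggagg

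The last 36 coding bases of each mouse member are given with the final 12 before the stop codon in capitals, because these encode the free end of the protein. Those of Pkp4 and Arvcf are identical in 11 of 12 positions, and no other pair of members shares more than 8 of 12. Both proteins are known to bind PDZ domains by this end.

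Pkp4: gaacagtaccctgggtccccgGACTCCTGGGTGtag
Arvcf: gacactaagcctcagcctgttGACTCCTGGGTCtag
Ctnnd1: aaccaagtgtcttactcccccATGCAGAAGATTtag
Pkp1: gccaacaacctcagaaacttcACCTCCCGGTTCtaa
Pkp2: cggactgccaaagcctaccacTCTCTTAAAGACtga
Pkp3: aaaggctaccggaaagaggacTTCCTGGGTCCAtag

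The canonical transcripts of the mouse members share identical stretches of at most 18 bases, so reads of 1 mouse member had little chance of being counted for another. GFP_PKP4 was not part of this comparison. Whether reads of the human transgene were counted for mouse Pkp4, or the reverse, was not tested. Ctnnd1 (ENSMUSG00000034101, reverse strand of chromosome 2, 84425959 to 84489326) shares 4482 bp of exon with a read-through gene on the same strand, Gm28635, which was listed at 0 in every library. Arvcf (ENSMUSG00000118669, forward strand of chromosome 16, 18166046 to 18225826) shares no exon with another gene on its own strand, and how the counting used the strand is not given in the sources used here. Pkp1 lies on the reverse strand of chromosome 1, Pkp2 on the forward strand of chromosome 16 and Pkp3 on the forward strand of chromosome 7, none of them in overlap with another gene's exons.

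The libraries held between 13602728 and 22467187 counts on genes. The TMM factor, by which edgeR corrects library size for differences in composition, was 0.481 to 0.546 in PKP4-KO at 72 h HCM and 0.705 to 1.39 in all other groups. Markers of keratinocytes summed to at least 24693 counts per 1000000 (CPM) in every library. Those of fibroblasts summed to at most 11.5 CPM, those of endothelium to 5.15, of melanocytes to 2.03, of immune cells to 0.762 and of Merkel cells or simple epithelium to 14.2. The summed markers of differentiated keratinocytes lay between 13308 and 15473 CPM in PKP4-KO at 72 h HCM, against 3155 to 5962 in WT and 2887 to 3629 in Rescue. At 24 h HCM they lay between 447 and 606 CPM in PKP4-KO, against 1532 to 2715 in WT and 1724 to 2219 in Rescue. In bulk RNA, a change in the share of cells of a type and a change in the RNA per cell cannot be told apart. Further, 7 libraries stood apart from the other 2 of their group, with an SD of the log2 difference over all tested genes of 0.81 to 0.97 against 0.4 to 0.78 in the other 29. They were WT 24 h HCM replicate 2, WT 72 h HCM replicate 3, PKP4-KO 24 h HCM replicate 3, PKP4-KO 24 h LCM replicate 1, PKP4-KO 72 h LCM replicate 2, Rescue 24 h LCM replicate 3 and Rescue 72 h LCM replicate 2. In these libraries the difference fell with gene length (r from -0.55 to -0.42 across genes, which are not independent replicates).

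The transgene was counted in the Rescue libraries at 1902 to 15325 reads, with a median of 5535.5. WT libraries held 0 to 113 reads on it and PKP4-KO libraries 3 to 112, so these groups overlapped each other and lay far below every Rescue library. Per kilobase of its row, GFP_PKP4 stood above Pkp4 of WT by 4.23-fold in 24 h LCM, 5.82-fold in 24 h HCM, 10.1-fold in 72 h HCM and 13.1-fold in 72 h LCM. These folds depend on the lengths used, 4332 bp for GFP_PKP4 and 5707 bp for Pkp4. With the canonical transcript of Pkp4, of 4594 bp, they would be smaller. In CPM scaled with TMM factors, GFP_PKP4 stood at 194.5 ± 25.6 (SD, n = 3) in 24 h HCM, 228 ± 90.6 in 24 h LCM, 294 ± 48.1 in 72 h HCM and 409.6 ± 131.4 in 72 h LCM. None of the 4 comparisons of calcium or time within Rescue was called by edgeR's quasi-likelihood test or by DESeq2, at an unadjusted p under 0.05 either. The log2 differences from 24 h to 72 h were 0.6 in HCM and 0.84 in LCM, each ± 0.73 (SE), although the libraries of the 2 times did not overlap in either medium. These SEs come from a spread estimated over all 36 libraries, while those of WT and PKP4-KO held 0 to 113 reads on this row. With only the groups compared in the fit, the rise from 24 h to 72 h in HCM was called (log2 fold change of 0.57, adjusted p = 0.00428). The exact test of edgeR called it too (adjusted p = 0.000617).

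**Figure D1:**
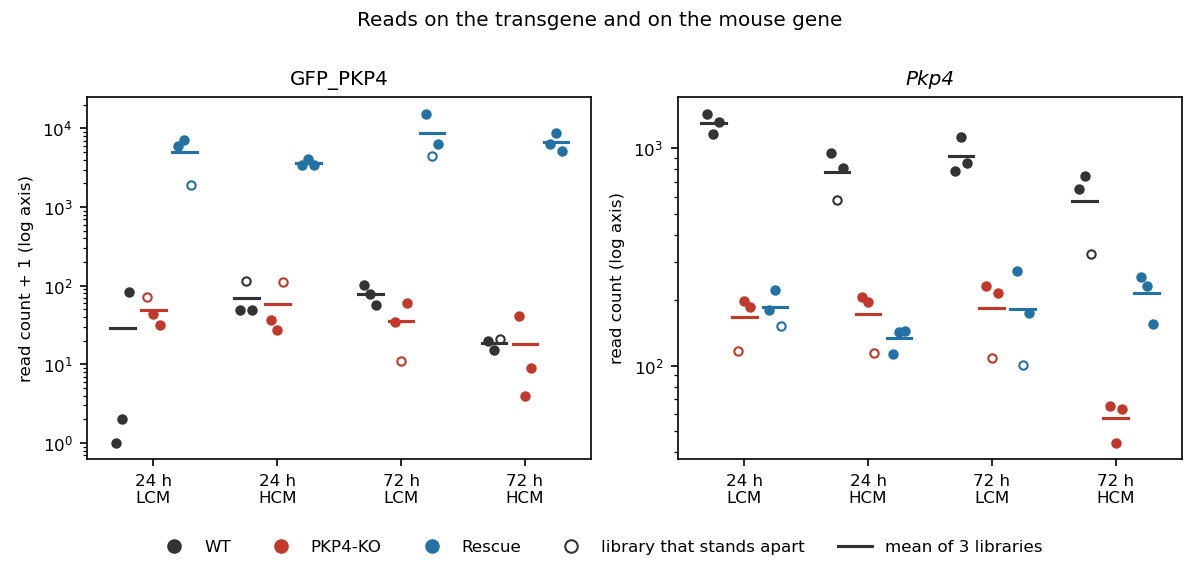
Read counts of GFP_PKP4 (left, count + 1) and of mouse Pkp4 (right) on log axes for every library, by culture condition and genotype. Points are libraries, short lines are group means, and open points mark the 7 libraries that stand apart. Rescue libraries hold 1902 to 15325 reads on the transgene, while the mouse gene is below WT in both Rescue and PKP4-KO.

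The mouse gene Pkp4 was lower in PKP4-KO than in WT in all 4 conditions, and its level in WT depended on calcium and time. In WT it was highest in 24 h LCM, with 76.2, 67.9 and 69.1 CPM. The other 3 conditions lay lower and overlapped each other, with 48.9, 41.6 and 41.5 CPM in 24 h HCM, 41.1 ± 3.15 (SD, n = 3) in 72 h LCM and 38.5, 43.8 and 33.4 in 72 h HCM. In WT, calcium lowered it at 24 h (log2 fold change of -0.69 ± 0.16 SE, adjusted p = 0.0023) and time lowered it in LCM (-0.79 ± 0.16, adjusted p = 0.00108). At 72 h the calcium difference in WT was -0.09 ± 0.16 (adjusted p = 0.729).

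In HCM, PKP4-KO cells retained 19.9% of the WT level of Pkp4 RNA after 24 h and 18.9% after 72 h. In LCM they retained 12.7% and 27.6%. The log2 fold changes were -2.33 and -2.41 in HCM and -2.98 and -1.86 in LCM, with SEs of 0.16 to 0.17 and a highest adjusted p of 2.77e-10. Without TMM factors the value in 72 h HCM was -3.19 (adjusted p = 6.32e-11). Only in that setting was Pkp4 in PKP4-KO called lower with time in HCM (-1.33, adjusted p = 3.65e-05). The residual RNA did not fall with time in LCM as in WT. It went from 8.98 ± 0.902 CPM (SD, n = 3) at 24 h to 11.3 ± 2.59 at 72 h, and the time response differed from that of WT by 1.13 ± 0.22 on the log2 scale (adjusted p = 0.00191), a call lost without TMM factors (0.98, adjusted p = 0.112). In Rescue the mouse gene stayed between 7.08 and 9.46 CPM as group means. It was lower than WT in all 4 conditions (-2.03 to -2.96), and its call against PKP4-KO at 72 h HCM (0.38 ± 0.17, adjusted p = 0.0497) came with overlapping groups and was lost under 7 of 9 other settings. Without TMM factors that value was kept and larger (1.55, adjusted p = 3.87e-06).

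On chromosome 2, genes near Pkp4 also had lower RNA in the knockout. The 19 tested genes within 5 Mb of it had a median log2 fold change of -1.18 in 24 h HCM, -1.15 in 72 h HCM, -0.92 in 24 h LCM and -0.76 in 72 h LCM, against medians of -0.07 to 0.02 over all tested genes. Of these 19, 12 to 14 were called lower and 0 or 1 higher in each condition, where 20.6% to 29.9% of all tested genes were lower. Ctnnd1 lies 25.2 Mb from Pkp4 on the same chromosome, and the 28 tested genes within 5 Mb of it had medians of -0.34, -0.48, -0.42 and -0.35 in the same order. The part of chromosomal position in the results for Pkp4 and Ctnnd1 was not tested.

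**Figure D2:**
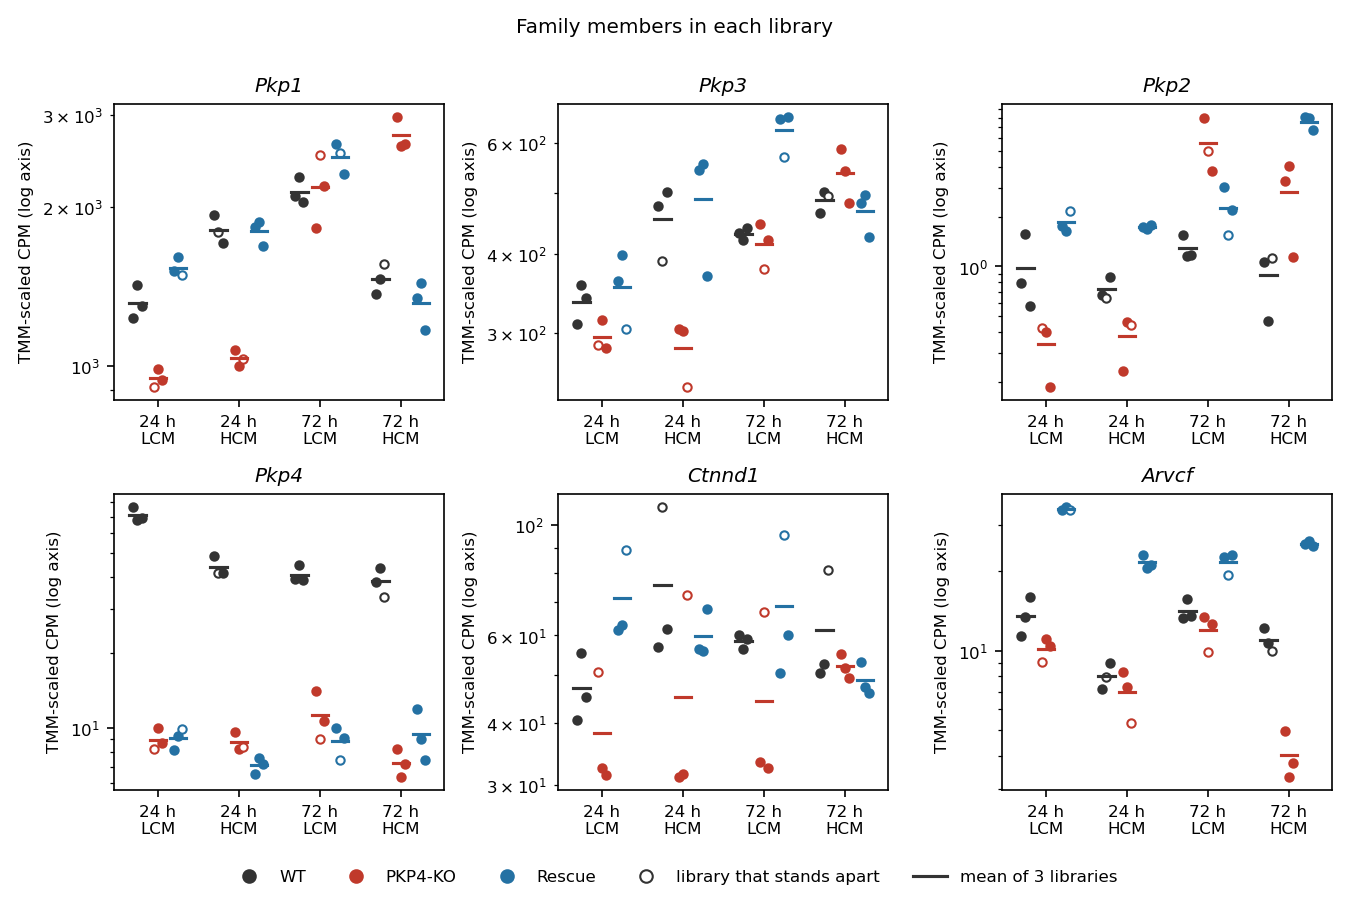
Level of each mouse member in every library, in CPM scaled with TMM factors on a log axis, by culture condition and genotype. Points are libraries, short lines are group means, and open points mark the 7 libraries that stand apart. Pkp1 and Pkp3 lie far above the other members, Arvcf is highest in Rescue in every condition, and the open points of Ctnnd1 are each the highest of their group.

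Levels per length put Pkp1 first in every group. As a share of the summed CPM per kilobase of the 6 mouse members, Pkp1 made up 64.7% to 77.5% and Pkp3 20.8% to 32%, as group means. Ctnnd1 made up 1.01% to 2.33%. Pkp4 fell from between 1.28% and 3.33% in WT to between 0.181% and 0.565% in PKP4-KO. Arvcf held 0.0845% to 1.22% and Pkp2 0.0226% to 0.349%. These shares depend on the length used. With that of the canonical transcript in place of the length in the table, the mean over the 12 groups went from 1.68% to 1.06% for Ctnnd1, from 0.0856% to 0.138% for Pkp2 and from 0.509% to 0.717% for Arvcf, and 61 of 72 group shares moved by more than their SD. The order of Pkp1, Pkp3 and Ctnnd1 was the same with both lengths. Ctnnd1 shares 4482 bp of exon with Gm28635 in GENCODE vM39, whose gene model is not that of the count table, and whether reads there were counted is not known. The share of Ctnnd1 could therefore be understated, and its ratio to Arvcf changed, by an amount that was not tested. Since these shares are taken within a library, they do not depend on the scaling between libraries.

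Between PKP4-KO and WT, the 5 relatives were called in both directions with TMM factors. Over the 6 mouse members, 4 were called lower and 0 higher at 24 h HCM, where 22.2% of all tested genes were lower and 20.7% higher. At 72 h HCM 2 were lower and 2 higher, against 29.9% and 21.9% of all genes. At 24 h LCM 4 were lower and 0 higher, against 20.6% and 19.7%, and at 72 h LCM 1 was lower and 1 higher, against 23.8% and 21.3%. Pkp4 itself is among the lower members in each condition. Without it, 7 of 20 tests of a relative were called lower and 3 higher, which is 10 of 20 in either direction and near the share of all genes. The 3 higher calls were Pkp1 at 72 h HCM and Pkp2 at 72 h in both media. Without TMM factors 18 of 24 tests of the 6 members were called, against 14 with them. Pkp2 at 72 h LCM was then the only higher call (1.71, adjusted p = 0.00067). Pkp1 (0.15, adjusted p = 0.412) and Pkp2 (0.91, adjusted p = 0.06) at 72 h HCM lost theirs. That scaling moved the median of all genes by -0.76 in 72 h HCM and -0.37 in 72 h LCM. At 24 h the median moved by 0.06 in HCM and -0.23 in LCM. Ctnnd1, Arvcf and Pkp3 were called higher in PKP4-KO in none of the 4 conditions.

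**Figure D3:**
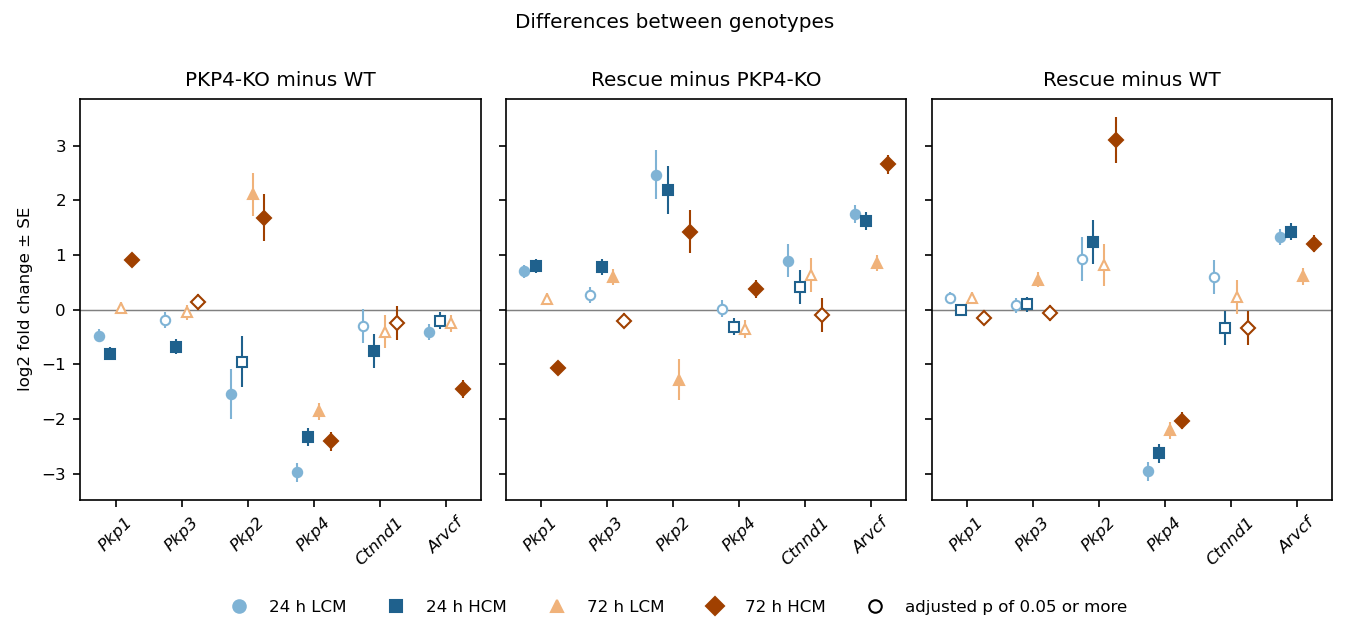
Log2 fold changes with their SE for the 6 mouse members between PKP4-KO and WT, Rescue and PKP4-KO, and Rescue and WT (panels, which share libraries), in each culture condition. Filled symbols have an adjusted p under 0.05 and open symbols do not. Pkp4 is lower than WT in both other genotypes, Arvcf is higher in Rescue than in either, and no difference of Pkp1 between Rescue and WT is filled.

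Pkp1, the plakophilin that strengthens desmosomes of differentiated keratinocytes, was lower in PKP4-KO at 24 h and higher at 72 h in HCM. In 24 h HCM the WT libraries held 1934, 1792 and 1709 CPM, those of PKP4-KO 1070.5, 998 and 1029, and those of Rescue 1836.5, 1875 and 1687. PKP4-KO lay below both other genotypes without overlap (log2 fold change against WT of -0.81 ± 0.12 SE, adjusted p = 1.31e-06). In 24 h LCM it was lower by the same test (-0.48 ± 0.12, adjusted p = 0.0014).

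In 72 h HCM the order of the genotypes turned. WT libraries held 1368, 1462 and 1557 CPM of Pkp1, PKP4-KO 2962, 2614.5 and 2640.4, and Rescue 1347, 1435 and 1166. The log2 fold change of PKP4-KO against WT was 0.91 ± 0.12 (adjusted p = 2.56e-07), but without TMM factors it was 0.15 (adjusted p = 0.412), a scaling that moved the median of all genes by -0.76. The ratio of Pkp1 to Pkp3 within a library, which needs no scaling, lay between 3.47 and 3.94 in PKP4-KO, above 2.1 to 2.27 in WT and 1.97 to 2.08 in Rescue. In 72 h LCM, Pkp1 did not pass the test between PKP4-KO and WT (0.03 ± 0.11, adjusted p = 0.866). Without TMM factors it was called lower there (-0.37, adjusted p = 0.048).

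The response of Pkp1 to time therefore differed between the genotypes. In HCM it rose from 24 h to 72 h in PKP4-KO (1.41 ± 0.12, adjusted p = 7.7e-11). It fell in Rescue (-0.45 ± 0.12, adjusted p = 0.00424), and in WT the value was -0.31 ± 0.11 (adjusted p = 0.0618). The difference between PKP4-KO and WT in this response was 1.72 ± 0.16 on the log2 scale (adjusted p = 4.78e-09). Without TMM factors the rise in PKP4-KO was 0.34 (adjusted p = 0.049) and the difference of responses 0.9 (adjusted p = 0.00142), while WT fell (-0.56, adjusted p = 0.0118) and the value in Rescue did not pass the test (-0.4, adjusted p = 0.0653). In LCM Pkp1 rose with time in all 3 genotypes (WT 0.7, PKP4-KO 1.21, Rescue 0.7). The call in Rescue was lost with only the groups compared in the fit (0.74, adjusted p = 0.0517) and by edgeR's exact test (adjusted p = 0.0908). The response to calcium at 72 h also differed, by 0.88 ± 0.16 (adjusted p = 0.000821), a call lost without TMM factors (0.52, adjusted p = 0.136). Calcium lowered Pkp1 at 72 h in WT (-0.55 ± 0.12) and in Rescue (-0.92 ± 0.12), and the value in PKP4-KO was 0.33 ± 0.12 (adjusted p = 0.0286, and -0.35 without TMM factors). This call in PKP4-KO was lost on leaving out 3 of the 6 libraries in turn (adjusted p up to 0.192). It was also lost without the filter on low counts, with only the groups compared and by the exact test. Between PKP4-KO and WT in HCM, the summed markers of differentiation differed in the same direction as Pkp1, lower at 24 h and higher at 72 h. Over time in HCM they did not follow it in the other genotypes. The marker sums rose in WT (1532 to 2715 CPM at 24 h, 3155 to 5962 at 72 h). They also rose in Rescue (1724 to 2219 CPM at 24 h, 2887 to 3629 at 72 h), where Pkp1 fell. In 72 h LCM they lay between 2057.5 and 3282 CPM in PKP4-KO and between 919.7 and 1101 in WT, where Pkp1 did not pass the test with TMM factors and was lower without them. Their part in the level of Pkp1 was not tested.

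Between Rescue and WT, Pkp1 was called in none of the 4 conditions. The log2 differences were -0.01, -0.15, 0.22 and 0.22, each with an SE of 0.11, in 24 h HCM, 72 h HCM, 24 h LCM and 72 h LCM. Without TMM factors they were 0.11, 0.27, 0.09 and 0.18, and none was called. By edgeR none had an unadjusted p under 0.05, and DESeq2 called none after adjustment. The Rescue libraries lay above those of WT without overlap in both LCM conditions. Against PKP4-KO, in a comparison that shares these Rescue libraries, Rescue differed by 0.8 ± 0.12 in 24 h HCM and 0.7 ± 0.12 in 24 h LCM. In 72 h HCM the value was -1.06 ± 0.12, and 0.12 without TMM factors. The difference in 72 h LCM did not pass the test with TMM factors, but was called without them (0.56, adjusted p = 0.00449).

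**Figure D4:**
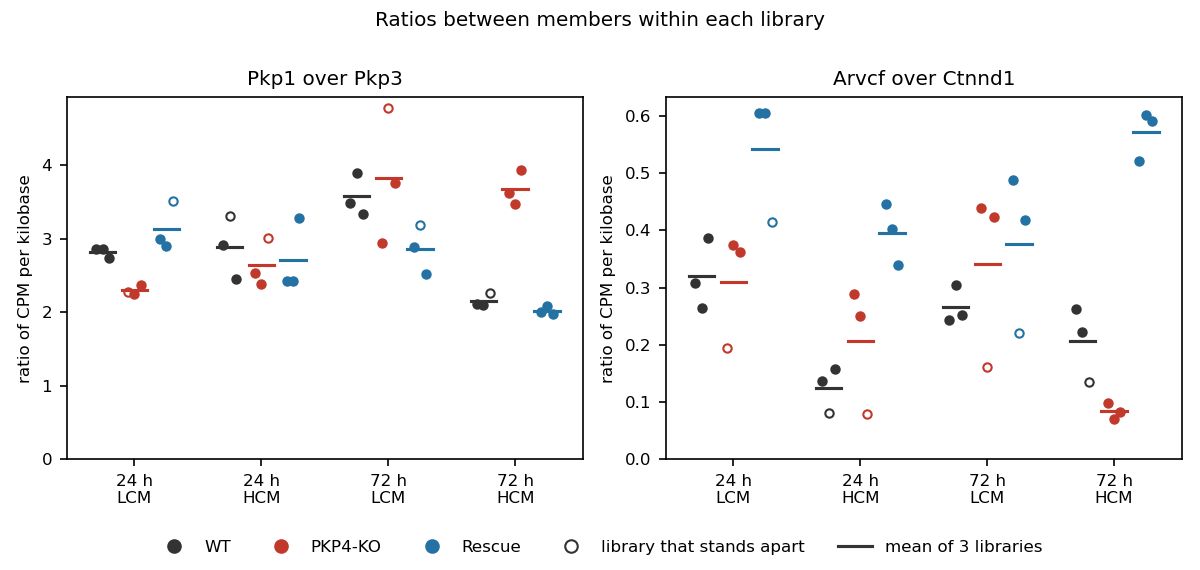
Ratio of Pkp1 to Pkp3 (left) and of Arvcf to Ctnnd1 (right), each in CPM per kilobase, within every library, by culture condition and genotype. Points are libraries, short lines are group means, and open points mark the 7 libraries that stand apart. At 72 h HCM PKP4-KO has the highest Pkp1 to Pkp3 ratios, 3.47 to 3.94, and the lowest Arvcf to Ctnnd1 ratios, 0.0704 to 0.0982.

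Pkp3, the other epidermal plakophilin, was lower in PKP4-KO than in WT in 1 of the 4 conditions. PKP4-KO libraries held 304, 302 and 247 CPM in 24 h HCM, below WT with 477, 390 and 501 and Rescue with 544, 556 and 369. The log2 fold change against WT was -0.68 ± 0.14 (adjusted p = 0.000196), and those in the other 3 conditions lay between -0.19 and 0.14 and did not pass the test. At 72 h HCM the value was 0.14 ± 0.14 with TMM factors and -0.63 without them (adjusted p = 0.00809). With time in HCM the value of Pkp3 in PKP4-KO was 0.92 ± 0.14 (adjusted p = 3.41e-06), and -0.16 (adjusted p = 0.49) without TMM factors. This response differed from that of WT by 0.82 ± 0.2 (adjusted p = 0.00218), a difference of 0 without TMM factors. Pkp3 rose with time in LCM in Rescue (0.82 ± 0.14). It was also called in PKP4-KO (0.49 ± 0.14), a call lost under 4 of 9 other settings, with 0.13 (adjusted p = 0.67) without TMM factors. In 72 h LCM it was higher in Rescue than in WT (0.55 ± 0.14, adjusted p = 0.00284) and than in PKP4-KO (0.6 ± 0.14, adjusted p = 0.000931). The call against WT was lost without TMM factors (0.52, adjusted p = 0.0538) and by edgeR's exact test (adjusted p = 0.0502). The call against PKP4-KO was lost with only the groups compared in the fit (adjusted p = 0.0634) and by the exact test (adjusted p = 0.155).

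Pkp2 was the lowest mouse member by mean CPM in every group, with 4 to 204 reads per library. In PKP4-KO 72 h HCM replicate 2 it lay above Arvcf, with 28 reads against 23. At 24 h it stood at 0.379 ± 0.126 CPM (SD, n = 3) in HCM and 0.337 ± 0.13 in LCM in PKP4-KO, and at 0.727 ± 0.121 and 0.98 ± 0.526 in WT. At 72 h PKP4-KO libraries held 3.3, 4.07 and 1.14 CPM in HCM, just above WT with 1.06, 0.47 and 1.13. In 72 h LCM they held 7.92, 5.03 and 3.8 CPM, against 1.55, 1.15 and 1.18 in WT. The difference from WT was 1.68 ± 0.43 in 72 h HCM (adjusted p = 0.00169, and 0.91 without TMM factors, adjusted p = 0.06) and 2.11 ± 0.39 in 72 h LCM (adjusted p = 7.12e-05). At 24 h LCM it was -1.54 ± 0.46 (adjusted p = 0.00844), a call lost without WT replicate 2 (-1.03, adjusted p = 0.0955) or without PKP4-KO replicate 3 (-1.23, adjusted p = 0.0584).

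Pkp2 rose between 24 h and 72 h in PKP4-KO by 2.88 ± 0.45 in HCM (1.79 without TMM factors, adjusted p = 0.000729) and 4.05 ± 0.45 in LCM. In Rescue it rose in HCM by 2.12 ± 0.39 (adjusted p = 0.000139), and the value in LCM was 0.3 ± 0.38 (adjusted p = 0.78). In WT the values were 0.25 ± 0.44 and 0.4 ± 0.4 and did not pass the test. The time responses of PKP4-KO and WT differed by 2.63 ± 0.63 in HCM (adjusted p = 0.00221) and 3.65 ± 0.6 in LCM (adjusted p = 0.000193). Without TMM factors the difference in HCM was 1.8 (adjusted p = 0.0179). The highest group mean was that of Rescue in 72 h HCM, with 8.01, 7.94 and 6.75 CPM, 3.11 ± 0.42 above WT on the log2 scale (adjusted p = 1.49e-06). At 24 h HCM Rescue was above WT by 1.24 ± 0.41 (adjusted p = 0.0278), and this call was lost on leaving out 5 of the 6 libraries in turn, with an adjusted p of up to 0.0861. Against PKP4-KO, Rescue held more Pkp2 in 3 conditions, calls that none of 8 other settings lost. Over these settings the log2 fold changes were 2.2 to 2.3 in 24 h HCM and 2.46 to 2.57 in 24 h LCM. For 72 h HCM they were 1.3 to 2.62. In 72 h LCM Rescue held less Pkp2 than PKP4-KO (-1.28 ± 0.38, adjusted p = 0.00712), a call lost without PKP4-KO replicate 1 (-0.94, adjusted p = 0.0716) and without TMM factors (-0.88, adjusted p = 0.0593). Markers of other states also differed with genotype. The 4 markers of Merkel cells or simple epithelium, of which Atoh1 was at 0 in every library, summed to 5.13 to 14.2 CPM in Rescue, 0.401 to 5.74 in WT and 0 to 0.568 in PKP4-KO. In PKP4-KO at 72 h LCM, where Pkp2 had a mean of 5.58 CPM, these 4 markers summed to only 0.168 to 0.5 CPM. The 7 keratinocyte markers summed to 24693 to 25390.1 CPM in Rescue at 72 h HCM, against 48903 to 59478 in WT and 56401 to 62723 in PKP4-KO. At 24 h HCM their sums in Rescue (36281 to 41526 CPM) overlapped those in WT (38051 to 46834). The part of these markers in the results for Pkp2 and Arvcf was not tested.

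Arvcf, the closest relative in its C-terminal coding bases, was higher in Rescue than in both other genotypes in every condition. In 72 h HCM Rescue libraries held 25.3, 26.1 and 24.9 CPM, WT libraries 12.2, 10.7 and 10 and PKP4-KO libraries 4.95, 3.34 and 3.75. In 24 h HCM Rescue held 23.1, 20.6 and 21.1, WT 7.16, 7.97 and 8.97 and PKP4-KO 8.29, 7.28 and 5.32. In 24 h LCM Rescue held 34.2, 34.9 and 34, WT 11.4, 13.4 and 16 and PKP4-KO 9.09, 11.1 and 10.4. In none of the 4 conditions did a Rescue library overlap with WT or PKP4-KO.

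Against WT, the log2 fold change of Arvcf in Rescue was 1.43 ± 0.16 (adjusted p = 6.82e-08) in 24 h HCM and 1.21 ± 0.15 (adjusted p = 7.52e-07) in 72 h HCM. In 24 h LCM it was 1.33 ± 0.15 (adjusted p = 1.5e-07) and in 72 h LCM 0.61 ± 0.15 (adjusted p = 0.00236). Against PKP4-KO, which shares these Rescue libraries, the values were 1.62, 2.66, 1.75 and 0.86 in the same order, with SEs of 0.15 to 0.17. Without TMM factors the value in 72 h HCM was 3.83 (adjusted p = 8.53e-13). The call against WT in 72 h LCM was lost without TMM factors (0.58, adjusted p = 0.057).

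In PKP4-KO, Arvcf was lower than in WT at 72 h HCM (-1.45 ± 0.17, adjusted p = 6.27e-08), to 36.6% of the WT level. Without TMM factors it was lower there with a log2 fold change of -2.22 (adjusted p = 2.3e-08). In 24 h LCM it was also called (-0.41 ± 0.15, adjusted p = 0.0335), and this call was lost without any of 4 libraries (WT replicates 2 and 3 and PKP4-KO replicates 1 and 3, adjusted p up to 0.208). In 24 h HCM and 72 h LCM the values were -0.2 ± 0.16 and -0.25 ± 0.15 and did not pass the test. Without TMM factors Arvcf was called lower in 72 h LCM (-0.63, adjusted p = 0.026). Calcium lowered Arvcf in WT at 24 h (-0.76 ± 0.16), in Rescue at 24 h (-0.67 ± 0.15) and in PKP4-KO at 72 h (-1.57 ± 0.17, and -2.27 without TMM factors). In WT at 72 h the value was -0.37 ± 0.15 (adjusted p = 0.0875), and it was called by DESeq2 (-0.34, adjusted p = 0.0478) and without TMM factors (-0.68, adjusted p = 0.0298). The calcium response at 72 h differed between PKP4-KO and WT by -1.2 ± 0.23 (adjusted p = 0.0011), and the time response in HCM by -1.25 ± 0.23 (adjusted p = 0.000158). Without TMM factors these differences were -1.6 (adjusted p = 0.00258) and -2.1 (adjusted p = 1.93e-05). The ratio of Arvcf to Ctnnd1 per length lay between 0.521 and 0.602 in Rescue at 72 h HCM, 0.135 and 0.263 in WT and 0.0704 and 0.0982 in PKP4-KO.

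Ctnnd1, which encodes p120-catenin, was called in 2 of the 28 comparisons. In 24 h HCM PKP4-KO libraries held 31.2, 31.6 and 72.4 CPM and WT libraries 57, 108.6 and 61.9. The groups overlapped through a single PKP4-KO library, and the log2 fold change was -0.75 ± 0.31 (adjusted p = 0.0499), a call lost in 6 of 9 other settings (adjusted p up to 0.214) and on leaving out 3 of the 6 libraries in turn. In 72 h HCM, 24 h LCM and 72 h LCM the difference between PKP4-KO and WT was -0.24, -0.3 and -0.4, each ± 0.31. Without TMM factors Ctnnd1 was called lower in PKP4-KO in all 4 conditions, with -0.69 (adjusted p = 0.0138) in 24 h HCM, -0.96 (adjusted p = 0.000507) in 72 h HCM, -0.56 (adjusted p = 0.0477) in 24 h LCM and -0.83 (adjusted p = 0.00315) in 72 h LCM. In 24 h LCM Rescue held 61.6, 62.9 and 89.2 CPM and PKP4-KO 50.7, 32.4 and 31.4, a log2 fold change of 0.9 ± 0.31 (adjusted p = 0.0248). Without Rescue replicate 3 (0.71, adjusted p = 0.108), or without PKP4-KO replicate 2 (0.8, 0.0964) or 3 (0.78, 0.0975), that call was lost. No response of Ctnnd1 to calcium or time was called in any genotype by this fit.

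The spread of Ctnnd1 within groups followed the 7 libraries that stood apart. In all 7 it was the highest of its group, by 0.52 to 1.2 on the log2 scale above the other 2, while the other 29 libraries lay between -0.61 and 0.37. Arvcf was the lowest of its group in 6 of them and Pkp3 in 5. Without these 7 libraries, an alternative chosen after seeing the data, Ctnnd1 was lower in PKP4-KO than in WT by 0.94 in 24 h HCM (log2 fold change of -0.94, adjusted p = 1.37e-06), in 24 h LCM (-0.59, adjusted p = 0.000322) and in 72 h LCM (-0.84, adjusted p = 3.12e-06). In 72 h HCM the value was 0.03 (adjusted p = 0.853). In the same fit Rescue was above PKP4-KO by 0.95, 0.98 and 0.75 in those 3 conditions (highest adjusted p = 4.01e-05) and the value was -0.1 (adjusted p = 0.432) in 72 h HCM. The time response in HCM then differed between PKP4-KO and WT by 0.97 (adjusted p = 0.000107) and the calcium response at 72 h by 0.87 (adjusted p = 0.000622). Each library left out was the highest of its group in Ctnnd1, so leaving it out lowers that group by construction. In LCM a PKP4-KO library but no WT library was left out, and in 72 h HCM the reverse. Between Rescue and PKP4-KO in 24 h HCM only PKP4-KO lost a library. Where the groups of a comparison did not lose libraries alike, these values cannot separate a difference between genotypes from that choice. In 24 h HCM PKP4-KO and WT each lost a library, as did Rescue and PKP4-KO in both LCM conditions. Leaving out the highest library on both sides also narrows the spread of Ctnnd1 by construction, so those p-values depend on that choice. The calls of Ctnnd1 thus depended both on the scaling and on which libraries entered, and the 2 alternatives differed in 72 h HCM (-0.96 and 0.03). What sets these libraries apart was not tested.

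**Figure D5:**
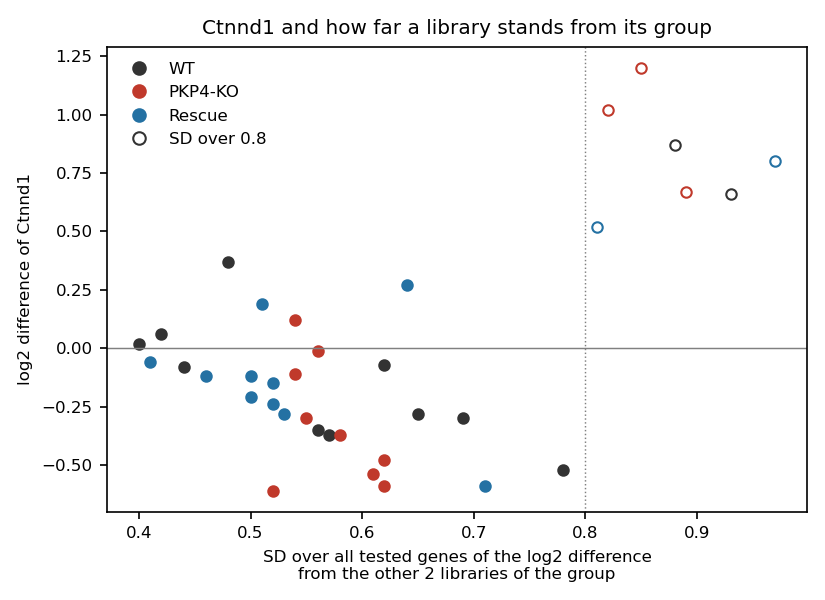
For each library, the log2 difference of Ctnnd1 from the mean of the other 2 libraries of its group (vertical axis) against the SD of that difference over all tested genes (horizontal axis). Colours are genotypes, open points have an SD over 0.8, marked by the dotted line. All 7 open points lie between 0.52 and 1.2, above every other library.

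Over the family, Rescue differed from PKP4-KO in 4 of 6 members in HCM after 24 h and 4 after 72 h, where 40.8% and 66.7% of all tested genes differed. In LCM it differed in 4 after 24 h and 3 after 72 h, against 33.7% and 41.5%. From WT it differed in 3 and 3 members in HCM (23.2% and 36.2% of all genes) and in 2 and 3 in LCM (24.8% and 32.4%), and these included Pkp4 and Arvcf in every condition. Calcium changed 4 members in WT at 24 h and 1 at 72 h, against 14.2% and 21.4% of all genes. The 4 were Arvcf and Pkp4, which were lower in HCM, and Pkp1 (0.46 ± 0.12) and Pkp3 (0.44 ± 0.14), which were higher. The calls of Pkp1 and Pkp3 were each lost under 4 of 9 other settings, with 0.18 (adjusted p = 0.492) and 0.17 (adjusted p = 0.637) without TMM factors, and that of Pkp3 on leaving out 5 of the 6 libraries in turn. In PKP4-KO calcium changed 0 at 24 h (2.83% of all genes, with 1 member at an unadjusted p under 0.05 and 1 called by DESeq2, Arvcf in both) and 4 at 72 h (32.6%). The 4 were Arvcf, Pkp1, Pkp3 and Pkp4. Without TMM factors the values of Pkp1 and Pkp3 changed sign (-0.35 and -0.33). Pkp1 was lost or reversed under 4 of 9 other settings, Pkp3 under 5 and Pkp4 under 2. In Rescue calcium changed 2 at 24 h (12%) and 3 at 72 h (24.9%). The call of Pkp3 in Rescue was lost under 5 of 9 other settings at 24 h and 4 of 9 at 72 h.

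Time changed 1 member in WT in HCM (17.8% of all genes) and 2 in LCM (9.96%). The call in HCM was Arvcf (0.45 ± 0.16, adjusted p = 0.0435), which was lost on leaving out 5 of the 6 libraries in turn (adjusted p up to 0.198) and under 5 of 9 other settings (0.23, adjusted p = 0.508, without TMM factors). In PKP4-KO it changed 4 in HCM (55.8%) and 3 in LCM (26.1%), and in Rescue 2 in HCM (24.3%) and 3 in LCM (9.81%). The difference between PKP4-KO and WT in a response was called for 0 members in calcium at 24 h (4.02% of all genes, with Pkp3 and Pkp4 at an unadjusted p under 0.05 and none called by DESeq2) and for 2 in calcium at 72 h (5.74%). For time it was called for 4 members in HCM (26.6%) and for 2 in LCM (5.25%).

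Partners of the family in the 2 kinds of junction were counted from lists made with earlier results of these data known. Of 7 tested adherens junction partners, 4 (24 h HCM), 5 (72 h HCM), 3 (24 h LCM) and 3 (72 h LCM) were lower in PKP4-KO, where 22.2%, 29.9%, 20.6% and 23.8% of all tested genes were lower, and none was higher. In that order their median log2 fold changes were -0.75, -0.61, -0.73 and -0.55, against 0, -0.07, 0 and 0.02 over all tested genes. The 7 included Ctnnd2, which is itself related to p120-catenin and was called in none of the 4 conditions. Cdh1 (E-cadherin, the partner of p120-catenin), Ctnna1 (α-catenin) and Vcl (vinculin) were lower in all 4 conditions, with log2 fold changes of -0.5 to -1.33, -0.67 to -1 and -0.7 to -1.05.

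Of 11 desmosome partners, 11, 5, 8 and 8 were lower in the same order, against the same shares of all genes, with medians of -2.17, -0.72, -1.77 and -1.56. At 72 h HCM 1 of them was higher, where 21.9% of all genes were, namely Jup (plakoglobin, 0.75, adjusted p = 0.00209). At 24 h HCM Jup was lower (-1.15, adjusted p = 2.05e-05). The value at 72 h HCM is about as large as the shift of all genes without TMM factors there (-0.76), and the difference between the times was not tested for Jup. Dsc3, Dsg3 and the plaque protein Ppl were lower in all 4 conditions, with log2 fold changes of -1.29 to -1.96, -1.36 to -1.93 and -1.28 to -2.17, and Dsc2 and Dsg2 were lower in all 4 as well. Dsp (desmoplakin, which binds plakophilins) was lower at 24 h HCM (-1.06) and 72 h LCM (-0.87).

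Across the 12 group means, Pkp1 and Pkp3 followed each other most closely among the members (Pearson r = 0.8), and Pkp4 followed no other member (r from -0.32 to 0.22). The points share libraries and scaling, and these values are descriptions. Among 9065 protein-coding genes of at least 5 CPM, those most like Pkp4 were Nrbp1 (r = 0.947), Sun1 (0.94) and Zfp664 (0.928). Those most like Arvcf were Tamalin (0.969), Arhgef28 (0.955) and Ppm1m (0.952). For Ctnnd1 they were Llgl2 (0.917), Lrrc8a (0.914) and Sri (0.898). For Pkp1 they were Flad1 (0.933), Rmc1 (0.916) and Plcd1 (0.913), for Pkp3 Plekhn1 (0.966), Gdpd3 (0.959) and Kif13b (0.959), and for Pkp2 Pgm1 (0.924), Msi2 (0.9) and Dusp1 (0.898).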

How the data were processed

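RNA of 36 keratinocyte libraries was selected by poly(A) and sequenced as strand-specific pairs. The authors aligned reads with HISAT2 2.1.0 to the mm39 genome plus a GFP-PKP4 sequence. Secondary alignments were dropped with SAMtools 1.10, and featureCounts 2.0.0 assigned reads to genes of the Ensembl GRCm39 annotation. The deposited values are raw counts per gene, whole numbers without normalization. How reads with several matches were counted is not given in the sources used here.

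Here, edgeR 4.0.16 in R 4.3.3 (filterByExpr, TMM factors, quasi-likelihood test) was fitted to all 36 libraries at once, with 12 group means and 24 residual degrees of freedom, since all groups then share the estimate of the spread. P-values of 28 comparisons were adjusted after Benjamini and Hochberg over the 15114 tested genes, and a gene is called at an adjusted p under 0.05. Levels are counts divided by the TMM-scaled library total, times 1000000 (CPM), and per kilobase of the length in the table where genes are compared. Every pair of libraries of a group differed by more than sampling noise. IDs were matched to GENCODE vM39 for 98.9% of rows. The scripts were tested on simulated data.

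All members are named, and for each the 3 genes with the highest Pearson correlation over group means. From the lists of adherens junction and desmosome partners, the genes called in 1 direction in all 4 conditions are named, with Cdh1, Jup and Dsp. A further list and an overlap are not reported here. The members, lists and tests were chosen with earlier results of these data known. Alternatives were DESeq2 1.42.0, no TMM factors, upper quartile factors, no filter, at least 10 counts in every library, a fit of only the groups compared, edgeR's exact test, a replicate block and leaving out each library. Leaving out the 7 libraries that stand apart was chosen after seeing the data.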

Additional observations from a re-analysis of the deposited data

Results flagged for a closer look

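The following 8 results were singled out because the response of PKP4-KO to calcium or time differed from that of WT in an interaction contrast of edgeR's quasi-likelihood test (difference of log2 responses, PKP4-KO minus WT). For the calcium response at 72 h these were Arvcf (-1.2) and Pkp1 (0.88). For the time response in HCM they were Pkp1 (1.72), Pkp2 (2.63), Pkp3 (0.82) and Arvcf (-1.25). For the time response in LCM they were Pkp2 (3.65) and Pkp4 (1.13). Of these, Pkp1 in calcium at 72 h, Pkp3 in HCM and Pkp4 in LCM were not called without TMM factors. With 3 libraries in each group, no library was tested as an outlier.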

How the results depend on the processing

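Over the family, the counts of calls stayed within 1.5 times the reported count under every alternative except for calcium. There 14 calls became 8 without the filter on low counts, 7 with only the groups compared in the fit and 7 by edgeR's exact test. For GFP_PKP4 in Rescue, 0 of 4 comparisons became 1 of 4 with only the groups compared and 1 of 4 by the exact test. Scaling mattered most. Without TMM factors, which moved the median of all genes by up to 1.17 on the log2 scale (Rescue against PKP4-KO, 72 h HCM), 10 values that were called with or without them changed sign, beside others called in neither fit. In PKP4-KO from 24 h to 72 h in HCM these were Ctnnd1 (-0.82) and Pkp3 (-0.16). For calcium in PKP4-KO at 72 h they were Pkp1 (-0.35) and Pkp3 (-0.33). Between PKP4-KO and WT they were Pkp3 in 72 h HCM (-0.63) and Pkp1 in 72 h LCM (-0.37), and between Rescue and PKP4-KO in 72 h HCM Ctnnd1 (1.08), Pkp1 (0.12) and Pkp3 (0.98). The difference of the time response of Pkp3 in HCM came to 0. The median of all genes moved by -1.07, -0.69, -0.76, -0.37 and 1.17 in these comparisons in the order given, and by -0.83 for that difference. Since this scaling moves all genes of a comparison alike, the changes of sign say nothing of the members apart from it. Why the scalings differ was not tested. Leaving out each library in turn, 48 values lost their call, 12 gained one, 1116 did neither and none of the called values changed sign, and the counts stayed between 12 and 15 for PKP4-KO against WT, 14 and 18 for Rescue against PKP4-KO, 10 and 12 for Rescue against WT, 12 and 15 for calcium, 14 and 16 for time and 8 and 9 for the differences of response. Of 72 same-numbered pairs over 24 comparisons, 21 had deviations correlated over 0.1 (r from -0.65 to 0.72). All 3 pairs did so in 2 comparisons, calcium in WT at 24 h (r from 0.35 to 0.48) and Rescue against PKP4-KO in 72 h LCM (0.3 to 0.72), where a replicate block changed no call of a member. In the others not all 3 pairs did so, which cannot exclude a shared day, litter or culture. The labels do not say what a replicate number marks. A replicate block changed the count for PKP4-KO against WT from 14 to 13 and lost 2 calls, of Ctnnd1 in 24 h HCM (-0.75, adjusted p = 0.0531) and of Arvcf with time in WT in HCM (0.45, adjusted p = 0.0545). Low counts limit Pkp2, at 4 to 11 reads per library in PKP4-KO at 24 h.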
